A study of Mus musculus with 8 samples.

Results

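The genes examined were the Nduf genes, whose symbols begin with Nduf after NADH:ubiquinone oxidoreductase, the enzyme also known as respiratory complex I. They were taken by symbol from the deposited RNA sequencing table, leaving out Ndufa4l2, which gave 43 of its 22520 genes. By role, 36 of them encode complex I subunits (7 core and 29 accessory), 6 encode assembly factors named Ndufaf, and Ndufa4 keeps its Nduf name although its product is now assigned to complex IV. Neither the level of a gene nor its response was used to choose it.

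Mouse microvascular endothelial cells (ECs) depleted of LRP1, a large endocytic receptor related to the LDL receptor, were compared with ECs of littermate controls, to ask which genes respond to the loss of the receptor. The LRP1 KO group carried the genotype LRP1 f/f; Cdh5-CreER+/- and the wild-type (WT) group LRP1 f/f; Cdh5-CreER-/-, so that both groups had the floxed Lrp1 alleles and only LRP1 KO mice had the Cre recombinase, a form switched on by tamoxifen and made in cells that use the Cdh5 promoter. All mice were C57BL/6 at postnatal day 14, and each of the 4 WT and 4 LRP1 KO libraries was labelled as a mixture of microvascular cells of 3 organs, heart, liver and lung. Such cells were isolated with beads carrying a PECAM-1 antibody, and the labels do not say whether each library came from a separate mouse, so the p-values below measure only the spread between libraries.

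Complex I is the entry point of the respiratory chain in the inner mitochondrial membrane. It takes electrons from NADH, passes them along a chain of iron-sulfur clusters to ubiquinone, and pumps protons across the membrane. Its matrix arm holds the N module, where NADH is oxidised, and the Q module, where ubiquinone is reduced. Its membrane arm holds the proton pumps, whose core subunits are encoded by the mitochondrial genome, while all other subunits are encoded in the nucleus, made in the cytosol and imported. ECs are known for drawing much of their energy from glycolysis, with mitochondria that serve biosynthesis and signaling as well.

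The targeted gene was low in the libraries labelled LRP1 KO. Lrp1 was at 113, 140.4, 103 and 124 FPKM (sequenced fragments divided by the length of the transcript and by the mapped total) in WT 1 to 4. It was at 3.45, 5.20, 2.79 and 7.72 in LRP1 KO 1 to 4, with a mean 3.99% of that of WT. LRP1 KO library 4 had the highest Lrp1 of its group and lay between the groups on the first principal component of all tested genes, which held 60.8% of the variance. Its Cdh5 level, a marker of ECs, was 8.56 FPKM against 21.5 to 47.3 FPKM in the other LRP1 KO libraries and 8.87 to 11.2 FPKM in WT.

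Cells other than ECs were represented in all libraries, and their markers differed between the groups. The summed level of 10 fibroblast markers was 2415 to 3610 FPKM in WT and 1998 to 3203 in LRP1 KO, above the sum of 12 endothelial markers in every library, which was 146 to 160 FPKM in WT and 156 to 519 in LRP1 KO. The sum of 12 macrophage markers was 90.8 to 115 FPKM in WT and 238 to 575 in LRP1 KO, with 9 of 11 tested markers called higher, and that of 9 leukocyte markers was 8.97 to 15.3 and 49.6 to 99.4 FPKM, with 6 of 7 called higher. All 10 fibroblast estimates were below 0, and 2 of these markers, Dpt and Pdgfra, were called lower. All 12 endothelial estimates were above 0 with a median of 0.78, and 1 of these markers, Eng, was called higher. The endothelial sum was 156 FPKM in LRP1 KO library 4, within the WT range, and 339 to 519 FPKM in the other LRP1 KO libraries. Mural cell markers summed to 673 to 839 FPKM in WT and 1044 to 1643 in LRP1 KO, with 5 of 8 called higher. Markers of cardiomyocytes, hepatocytes and lung epithelium summed to at most 156, 28.0 and 8.33 FPKM in any library, and the hepatocyte marker Cyp3a11 was listed at 0 throughout. The only hepatocyte marker tested was called higher, from 10.5 to 21.6 FPKM (log2 fold change 0.91, limma adjusted p = 0.0326). Of 2 lung epithelium markers tested, 1 was called lower (-0.85, limma adjusted p = 0.00770), and 0 of 3 cardiomyocyte markers were called. The macrophage, leukocyte and mural marker sums, and narrowly that of the hepatocyte markers, were higher in every LRP1 KO library than in every WT library, beside every group of Nduf genes described here, while the other sums overlapped between the groups. Their part in those results was not tested beyond fits with the macrophage or the endothelial marker level as a covariate. In such bulk samples, fewer cells of a type and less RNA per cell cannot be told apart.

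All Nduf genes were expressed in both groups. Each of the 43 passed the filter on low values, at least 1 FPKM in at least 4 libraries, which 11389 genes passed in all. The median Nduf gene was at 72.5 FPKM in WT and 71.0 in LRP1 KO. Ndufa4 had the highest WT mean at 350 FPKM, followed by the accessory subunits Ndufa3 at 277 FPKM, Ndufv3 at 179 FPKM and Ndufa7 at 166 FPKM. The assembly factors, which bind the enzyme only while it is built, were the lowest, from 15.9 FPKM for Ndufaf2 down to 2.96 FPKM for Ndufaf6. The lowest subunit was Ndufa11, a membrane arm protein, at 16.5 FPKM. As the plot of levels by library shows, this order from gene to gene spanned a far wider range than any difference between the groups.

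**Figure D1:**
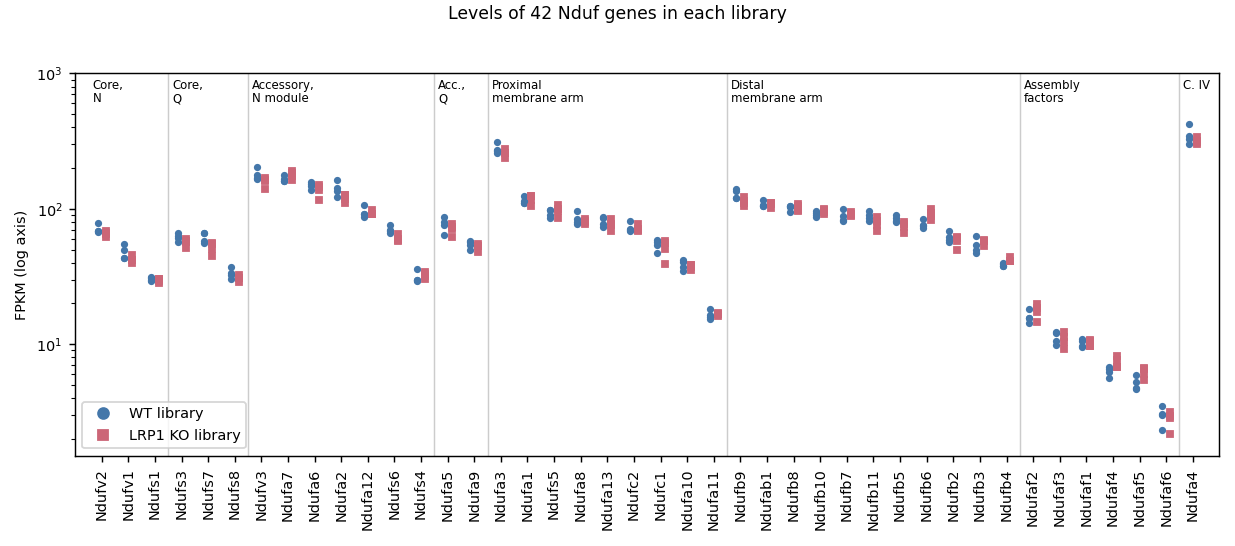
FPKM (log axis) of each of 42 Nduf genes in the 4 WT libraries (circles) and the 4 LRP1 KO libraries (squares), grouped by place in complex I, where Acc. stands for accessory and C. IV for complex IV. Levels run from about 3 FPKM for Ndufaf6 to 350 FPKM for Ndufa4, and the libraries of both groups overlap for all but 3 genes.

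Few Nduf genes were called changed with loss of LRP1. A single Nduf gene, Ndufs6, was called lower in LRP1 KO at an adjusted p-value under 0.05 (limma, Benjamini-Hochberg over all tested genes), against 13.6% of all genes tested, of which 6.27% were called higher and 7.31% lower. None of the 43 passed the stricter rule that adds a 2-fold change, which 1.62% of tested genes passed, and 10 of 43 had an unadjusted p-value under 0.05, against 33.7% of tested genes. The log2 fold changes, LRP1 KO minus WT on log2(FPKM + 1), ran from -0.25 for Ndufs7 to 0.24 for Ndufb6, with 29 estimates below 0 and 14 above, where 51.9% of all tested genes had an estimate below 0. Their median was -0.06, a level 96.2% of WT, and that of all tested genes was -0.01.

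In the fit with group as the only term, the intervals were narrow. All 43 had a 95% confidence interval that lay inside a log2 fold change of -0.5 to 0.5, as did 73.8% of all genes tested. The lowest bound was -0.45 for Ndufs7, or 73.1% of the WT level, and the highest was 0.43 for Ndufaf5, or 135% of it. These bounds did not carry over to the fit with the macrophage marker level as a covariate, where the estimates themselves reached -0.57 for Ndufs7, -0.51 for Ndufa6 and 0.53 for Ndufb6, with none of the 43 called. The spread between libraries was a little below that of other genes. The median coefficient of variation was 8.29% in WT and 6.06% in LRP1 KO for the Nduf genes. It was 9.52% and 8.95% for all tested genes, and 8.80% and 8.14% for the 9491 tested genes within the range of Nduf means.

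**Figure D2:**
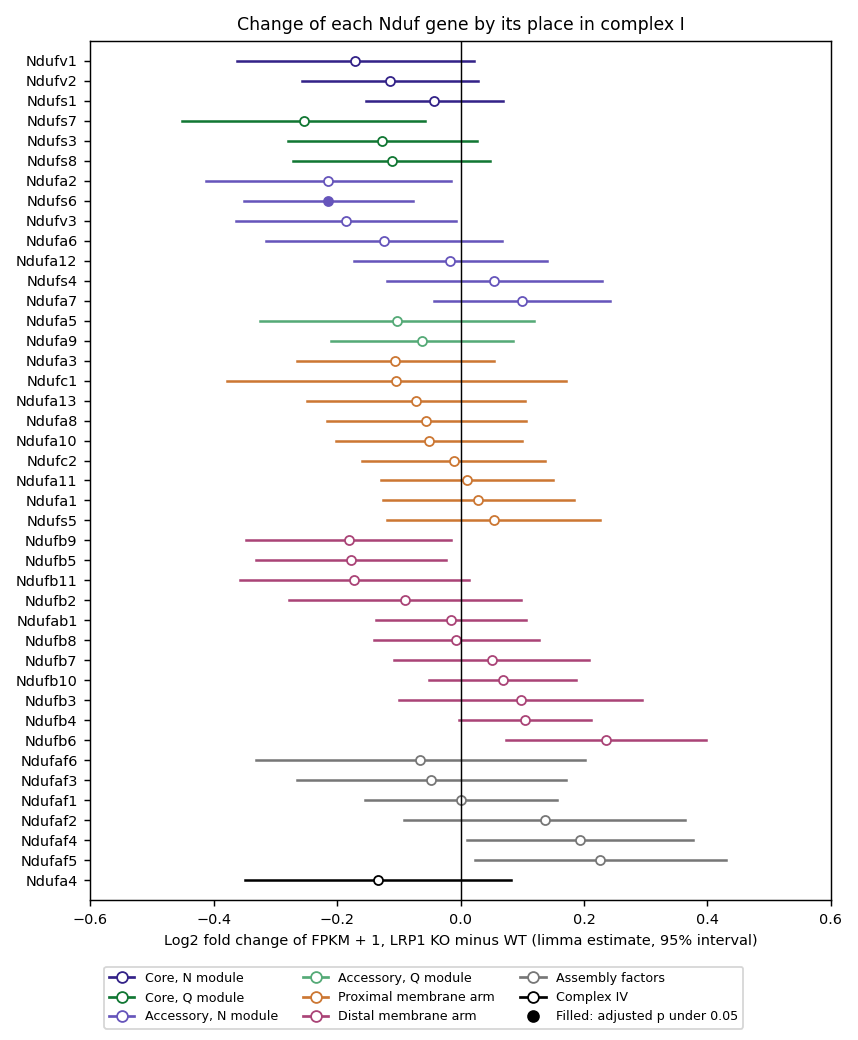
Log2 fold change of FPKM + 1 (LRP1 KO minus WT) of each of 42 Nduf genes as estimated by limma from 4 libraries a group, with its 95% confidence interval, coloured by place in complex I. Only Ndufs6 is filled (adjusted p under 0.05), the core subunits drawn lie left of 0, and every interval lies between -0.5 and 0.5.

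The core subunits carry the cofactors and catalyse electron transfer. Estimates for all 7 that are encoded in the nucleus were lower in LRP1 KO, with a median log2 fold change of -0.13, but none was called. In the N module, Ndufv1, which binds NADH and the flavin that accepts its electrons, was at 49.3, 55.4, 43.2 and 43.6 FPKM in WT and 41.6, 41.9, 39.7 and 45.8 in LRP1 KO. Its log2 fold change was -0.17 (SE 0.09, limma adjusted p = 0.190), and the groups overlapped because LRP1 KO library 4 lay above WT libraries 3 and 4; without it the change was -0.21 (limma adjusted p = 0.117), and without WT library 2 it was -0.10 (limma adjusted p = 0.409). Ndufv2, an iron-sulfur protein beside it, was at 79.0, 68.7, 68.6 and 67.3 FPKM in WT and 66.3, 68.2, 61.8 and 65.0 in LRP1 KO. WT library 1 stood above the other 3 WT libraries, and the change was -0.11 (SE 0.06, limma adjusted p = 0.230), or -0.06 without that library. Ndufs1, the largest subunit and carrier of several iron-sulfur clusters, was nearly level, at 31.2, 29.3, 30.9 and 29.9 FPKM in WT and 30.1, 30.1, 29.3 and 28.1 in LRP1 KO. Its change was -0.04 (SE 0.05, limma adjusted p = 0.572), or -0.02 without LRP1 KO library 4.

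The Q module held the core subunit with the lowest estimate. Ndufs7, which carries the last iron-sulfur cluster before ubiquinone, lies on chromosome 10 (80249121 to 80256794, plus strand, GRCm38). Ndufs7 was at 65.8, 66.8, 55.5 and 58.1 FPKM in WT and 50.7, 54.8, 44.6 and 55.8 in LRP1 KO. Only LRP1 KO library 4 reached above the lowest WT library, and the means were 61.6 ± 5.58 and 51.5 ± 5.09 FPKM (SD, n = 4 each). The log2 fold change was -0.25 (SE 0.09, limma adjusted p = 0.0806, exact two-sided permutation p = 0.0571), so that Ndufs7 did not pass. Without LRP1 KO library 4, Ndufs7 was called at -0.29 (limma adjusted p = 0.0443), while the share of all tested genes called rose to 26.2%. Its estimate was -0.19 without LRP1 KO library 3 and ran from -0.57 to -0.15 over the 16 alternatives, of which 1 called it.

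Ndufs3 and Ndufs8, also of the Q module, had estimates nearer 0. Ndufs3, which lies at the base of the matrix arm, was at 66.5, 63.3, 57.1 and 60.5 FPKM in WT and 56.8, 58.3, 51.1 and 60.1 in LRP1 KO, a change of -0.13 (SE 0.07, limma adjusted p = 0.217), or -0.08 without LRP1 KO library 3. Of the 50-base stretches of its longest coding transcript, 35.8% occur in transcripts of other genes, mostly a processed pseudogene, so its value is less certain. Ndufs8, which holds iron-sulfur clusters close to ubiquinone, was at 37.4, 33.7, 32.5 and 30.1 FPKM in WT and 32.4, 30.8, 31.0 and 29.0 in LRP1 KO. The ranges overlapped, and the change was -0.11 (SE 0.07, limma adjusted p = 0.296), or -0.06 without WT library 1. With the macrophage marker level as a covariate, 6 of the 7 core estimates were below 0 and that of Ndufs8 was 0.05; in every other alternative run, all 7 were below 0.

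Among the accessory subunits of the N module, which surround and stabilise the core, 1 of 7 was called. Ndufs6, a zinc-binding protein added late in assembly, lies on chromosome 13 (73319838 to 73328542, minus strand, GRCm38). It was at 75.9, 70.3, 68.9 and 66.0 FPKM in WT and 58.9, 57.8, 59.8 and 65.3 in LRP1 KO. Every LRP1 KO library lay below every WT library, with LRP1 KO library 4 just under WT library 4. The means were 70.3 ± 4.14 and 60.4 ± 3.32 FPKM (SD, n = 4 each), so that Ndufs6 fell to 86.0% of WT. The log2 fold change was -0.21 (SE 0.06, 95% confidence interval -0.35 to -0.08, limma adjusted p = 0.0475), and the exact two-sided permutation p was 0.0286, the smallest that 4 against 4 libraries can give.

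The call of Ndufs6 lay close to the threshold. It held in 3 of 16 alternatives, and the adjusted p ranged from 0.0156 to 0.711 over them (limma). Without LRP1 KO library 4 the change was -0.25 (limma adjusted p = 0.0156), and leaving out any other single library ended the call. With the macrophage or the endothelial marker level as a covariate it was -0.20 and -0.14 (limma adjusted p = 0.501 and 0.711), in fits that called 0.0878% and 1.06% of tested genes. Of its 50-base stretches, 8.33% are shared with a processed pseudogene, Ndufs6b. Its exons overlap by 30 bases those of Mrpl36, a mitochondrial ribosomal protein gene on the opposite strand, which was at 29.5 ± 2.71 FPKM in WT and 28.8 ± 2.33 in LRP1 KO (SD, n = 4 each; log2 fold change -0.03, limma adjusted p = 0.803).

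The estimates of other N module accessory subunits pointed both ways. Ndufa2, a small protein with a thioredoxin-like fold, was at 163, 143, 122 and 135 FPKM in WT and 119, 127, 111 and 126 in LRP1 KO (log2 fold change -0.21, SE 0.09, limma adjusted p = 0.125), and without WT library 1 its change was -0.14 (limma adjusted p = 0.231). Ndufv3, which sits beside the NADH-binding subunits, was at 203, 178, 169.6 and 166.5 FPKM in WT and 162, 167, 141 and 159.6 in LRP1 KO (-0.19, SE 0.08, limma adjusted p = 0.136). In both genes the groups overlapped through the lowest WT library alone, which lay below 2 LRP1 KO libraries for Ndufa2 and below 1 for Ndufv3. Ndufa6 had means of 149 and 137 FPKM and Ndufa12 of 94.2 and 92.8 FPKM. The estimates for Ndufs4, a subunit whose loss is used as a mouse model of Leigh syndrome, and Ndufa7 were above 0, with means of 31.2 and 32.3 FPKM and of 166 and 178 FPKM. In the Q module, both accessory subunits, Ndufa5 and Ndufa9, had estimates below 0, at -0.10 and -0.06, with neither called. That of Ndufa5 was -0.04 without WT library 1 or LRP1 KO library 3 and -0.19 without WT library 3. That of Ndufa9 was -0.02 without LRP1 KO library 3 and -0.10 without WT library 3.

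Over the whole matrix arm, 14 of 16 estimates were below 0 with a median of -0.12, and over the membrane arm 12 of 20 with a median of -0.01. Whether the arms differ was not tested. When the libraries were rescaled by their median ratio, the matrix arm kept 14 of 16 below 0, while the membrane arm had 9 below and 11 above 0. Without WT library 1 the matrix arm had 13 of 16 below 0 with a median of -0.08, and the membrane arm had 8 of 20 below 0 with a median of 0.01. Without LRP1 KO library 3 the membrane arm median was also above 0, at 0.007.

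The membrane arm accessory subunits wrap the proton pumps. None of the 20 was called. In the proximal part, next to the matrix arm, 6 of 9 estimates were below 0 and they ran from -0.11 for Ndufa3, or -0.05 without WT library 1, to 0.05 for Ndufs5. The means of Ndufa8 were 84.4 and 80.9 FPKM, of Ndufa13, also known as GRIM-19, 80.6 and 76.6 FPKM, and of Ndufa11 16.5 and 16.6 FPKM. No gene of the proximal part had an unadjusted p-value under 0.05.

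In the distal part the estimates were split, with 6 below and 5 above 0. Ndufb9, Ndufb5 and Ndufb11 had the lowest, with log2 fold changes of -0.18, -0.18 and -0.17 and limma adjusted p-values of 0.122, 0.106 and 0.174, and Ndufb11 was at -0.11 without LRP1 KO library 3. Ndufb9 went from a mean of 128 to 113 FPKM, Ndufb5 from 84.2 to 74.4 FPKM and Ndufb11 from 88.2 to 78.3 FPKM. Ndufab1, the mitochondrial acyl carrier protein, had means of 109 and 108 FPKM. Ndufb8, whose protein is lost readily when complex I fails to assemble, had means of 102 and 101.7 FPKM.

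Ndufb6, a distal subunit with a membrane-spanning helix, had the highest estimate of the family. It lies on chromosome 4 (40270591 to 40279421, minus strand, GRCm38) and was at 84.5, 72.1, 76.3 and 74.8 FPKM in WT and 98.9, 88.3, 93.8 and 82.3 in LRP1 KO. Only WT library 1 and LRP1 KO library 4 overlapped. The means were 76.9 ± 5.34 and 90.8 ± 7.15 FPKM (SD, n = 4 each), or 118% of WT. The log2 fold change was 0.24 (SE 0.07, 95% confidence interval 0.07 to 0.40), and at a limma adjusted p of 0.0575 and an exact two-sided permutation p of 0.0571 it did not pass. It was called in 5 of 16 alternatives, among them without LRP1 KO library 4 (0.28, limma adjusted p = 0.0186), without WT library 1 (0.28, limma adjusted p = 0.0489) and without both (0.33, limma adjusted p = 0.00987). With the endothelial marker level as a covariate it was 0.09 (limma adjusted p = 0.844), and with the macrophage marker level 0.53 (limma adjusted p = 0.121). Its exons overlap 257 bases of Smim27 on the opposite strand, and whether the authors counted reads by strand is not given in the sources used here.

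Ndufb4, another distal subunit, separated the groups with a small difference. It was at 39.9, 38.0, 39.0 and 38.0 FPKM in WT and 43.7, 41.0, 41.0 and 41.1 in LRP1 KO. All LRP1 KO libraries lay above all WT libraries, and the change was 0.10 (SE 0.05, limma adjusted p = 0.156). Because 37.0% of its 50-base stretches occur in other transcripts, chiefly the processed pseudogene Ndufb4c, this value is uncertain. In all, the groups did not overlap for 3 Nduf genes, against 19.6% of tested genes: Ndufb4 and Ndufaf4 lay above WT, as did 8.84% of tested genes, and Ndufs6 lay below, as did 10.7%.

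**Figure D3:**
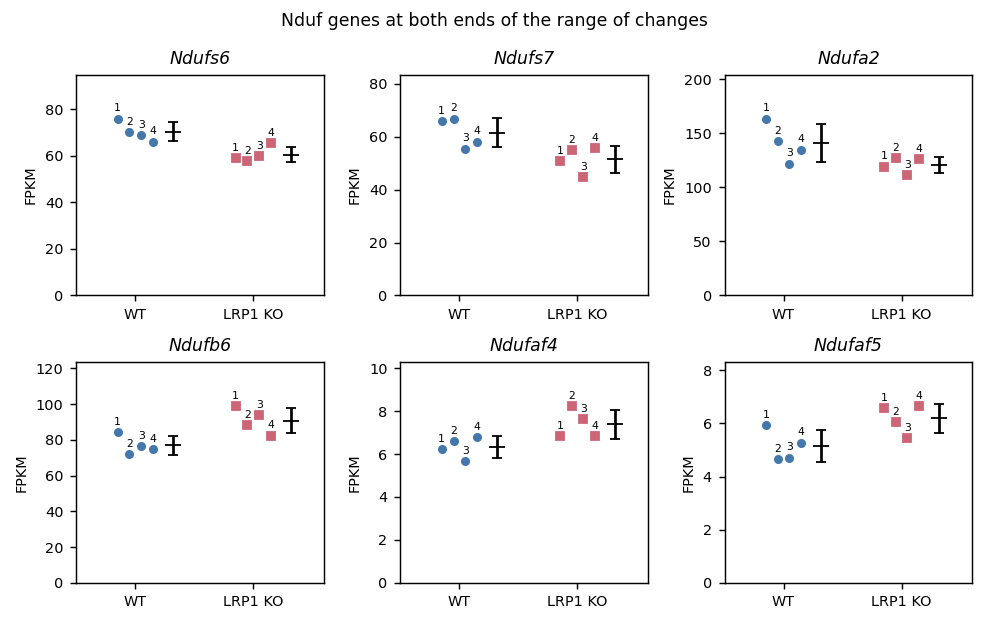
FPKM of 6 Nduf genes in each WT (circles) and LRP1 KO (squares) library, numbered by replicate, with the mean and SD of each group of 4 as bars; every axis starts at 0. LRP1 KO libraries lie below WT for Ndufs6 and above WT for Ndufaf4, and 1 or more libraries overlap for Ndufs7, Ndufa2, Ndufb6 and Ndufaf5.

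The assembly factors bring the modules together and are not part of the finished enzyme. Of the 6 Ndufaf genes, 4 had estimates above 0, with a median of 0.07, and none was called. Leaving out 1 library moved this median between 0.04 without LRP1 KO library 1 or WT library 3 and 0.11 without WT library 1 or LRP1 KO library 4, and 3 of 6 estimates were above 0 without LRP1 KO library 1 or WT library 4. With the endothelial marker level as a covariate the group turned, with 4 of 6 estimates below 0 and a median of -0.05. Ndufaf5, an enzyme that hydroxylates Ndufs7 during assembly, was at 5.95, 4.67, 4.71 and 5.28 FPKM in WT and 6.59, 6.06, 5.46 and 6.65 in LRP1 KO. WT library 1 overlapped LRP1 KO, and the change was 0.23 (SE 0.09, limma adjusted p = 0.116). Ndufaf4, which acts with Ndufaf3 on the Q module, was at 6.23, 6.59, 5.67 and 6.80 FPKM in WT and 6.84, 8.24, 7.61 and 6.84 in LRP1 KO, a change of 0.19 (SE 0.08, limma adjusted p = 0.130, exact two-sided permutation p = 0.0286). The gap between the groups was only that between 6.80 and 6.84 FPKM. Its partner Ndufaf3 had means of 11.2 and 10.8 FPKM and an estimate of -0.05.

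Ndufaf2, a paralog of Ndufa12 that holds its place during assembly, was at 18.2, 15.5, 14.2 and 15.6 FPKM in WT and 18.5, 19.9, 17.4 and 14.7 in LRP1 KO. LRP1 KO library 4 lay below 3 of the 4 WT libraries, and the change was 0.14 (SE 0.10, limma adjusted p = 0.366), or 0.22 without that library (limma adjusted p = 0.103). It was 0.08 without LRP1 KO library 2 and 0.09 without WT library 3. Ndufaf2 was called only without WT library 1 and LRP1 KO library 4 together (0.28, limma adjusted p = 0.0331), and its estimate was -0.04 with the endothelial marker level as a covariate. Of its 2978 exonic bases, a stretch of 1955 overlaps B230220B15Rik on the opposite strand, so its value is less certain. Ndufaf1 had a mean of 10.2 FPKM in both groups. Ndufa4, now assigned to complex IV, was at 421, 303, 329.9 and 346 FPKM in WT and 339, 311, 318 and 299.5 in LRP1 KO (-0.13, SE 0.10, limma adjusted p = 0.350), and its change was -0.04 without WT library 1.

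The libraries differed in their Nduf levels within each group. WT library 1 had the highest value of the 8 libraries for 27 of the 43 genes and the highest of WT for 35, while LRP1 KO library 3 had the lowest of the 8 for 18 and the lowest of its group for 30. The Nduf genes together made up 0.630% to 0.773% of all FPKM in a library, with LRP1 KO library 3 at the lower end and WT library 1 at the upper. Leaving out WT library 1 moved the median log2 fold change of the family from -0.06 to -0.03 and the split of estimates from 29 below and 14 above 0 to 24 and 19. Leaving out LRP1 KO library 3 gave -0.02, with 25 below and 18 above.

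The nuclear genes lie on 16 chromosomes, with at most 5 on any of them, and their promoters were read for 7-base words that known regulators of mitochondrial genes bind. Both strands of the 300 bases around each start were searched for GCGCATG (NRF1), CCGGAAG (GABPA and other ETS factors), AAGATGG (YY1) and AAGGTCA (ERR alpha). The ETS word ends in the letters with which the YY1 and ERR alpha words begin, so matches can overlap. Of the 38 Nduf promoters in the RefSeq table, 7 (18.4%) held the NRF1 word, against 7.39% of promoters of tested genes and 4.04% of all promoters. The YY1 word was in 7 (18.4%), against 7.52% and 6.48%, the ETS word in 5 (13.2%), against 18.9% and 9.12%, and the ERR alpha word in 3 (7.89%), against 3.03% and 4.66%. These are matches of letters and not sites of binding.

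The bases upstream of the only gene called and of the gene with the highest estimate are shown, outside annotated UTRs, because these genes stand at opposite ends of the family. The Ndufb6 stretch is chr4:40279422-40279671 and the Ndufs6 stretch chr13:73328621-73328732, both on the minus strand of GRCm38.p6, from RefSeq, written 5′ to 3′ with word matches in capitals. In Ndufb6 the ETS word begins 232 bases before the start, read on the reverse strand, and the NRF1 word 77 bases before it. Ndufs6 has no match in the stretch shown, and its YY1 word lies elsewhere in its 300 bases.
Ndufb6: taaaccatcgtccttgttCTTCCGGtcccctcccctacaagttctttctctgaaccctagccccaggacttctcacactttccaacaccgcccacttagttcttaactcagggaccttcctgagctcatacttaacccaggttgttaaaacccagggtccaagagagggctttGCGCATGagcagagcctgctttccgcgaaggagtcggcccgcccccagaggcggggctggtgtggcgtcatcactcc
Ndufs6: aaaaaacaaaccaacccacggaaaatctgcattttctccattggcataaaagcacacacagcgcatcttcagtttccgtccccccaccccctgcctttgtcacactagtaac
The factors themselves were measured as well. Nrf1 was at 9.74 and 9.80 FPKM in WT and LRP1 KO, Gabpa at 12.6 and 14.8 FPKM, Yy1 at 22.6 and 22.4 FPKM and Esrra at 14.5 and 13.4 FPKM, and of 10 regulators of mitochondrial gene expression tested, 0 were called by limma and 1 had an unadjusted p-value under 0.05. The coactivator genes Ppargc1a and Ppargc1b were too low to be tested, with means of 0.511 and 0.289 FPKM in WT and 0.182 and 0.178 in LRP1 KO.

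The rest of the respiratory chain was examined in the same fit. The 7 complex I subunits of the mitochondrial genome, the mt-Nd genes, all had estimates above 0 with a median of 0.31, and 0 were called by limma, with 1, mt-Nd2, at an unadjusted p-value under 0.05. The summed mt-Nd level divided by the summed level of the 36 nuclear subunits was 1.82, 1.66, 2.48 and 2.27 in WT and 2.79, 2.31, 3.39 and 2.02 in LRP1 KO. The ranges overlapped, with LRP1 KO libraries 2 and 4 within the WT range. The median mt-Nd change was -0.06 with the endothelial covariate, 0.20 when LRP1 KO library 3 was left out and 0.45, with 1 gene called, when library 4 was. The other assembly factors of complex I had 1 of 10 called, Atp5sl (newer symbol Dmac2), which fell from 9.71 to 7.95 FPKM (log2 fold change -0.25, limma adjusted p = 0.0442), where 13.6% of all tested genes were called. In 11 of 16 alternatives none of these genes was called, among them those without WT library 1, 2 or 4 or LRP1 KO library 1, 2 or 3.

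The nuclear genes of the other complexes had estimates between -0.24 and 0.15. In complex III, 1 of 9 was called: Uqcrh, the hinge protein, fell from 275 to 232 FPKM (-0.24, limma adjusted p = 0.0393), beside 7.31% of all tested genes called lower. A complex III gene was called in 4 of 16 alternatives, and in none that left out a single library other than LRP1 KO library 4. By limma 0 of 4 complex II genes, 0 of 10 complex IV genes and 0 of 15 ATP synthase genes were called, with 1, 0 and 2 at an unadjusted p-value under 0.05. Their medians were -0.01, -0.01 and -0.09, and 11 of the 15 ATP synthase estimates were below 0. The plot of respiratory chain genes by library shows WT library 1 above the other WT libraries for both arms of complex I and for complexes III and IV and ATP synthase, as for the Nduf genes one by one.

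**Figure D4:**
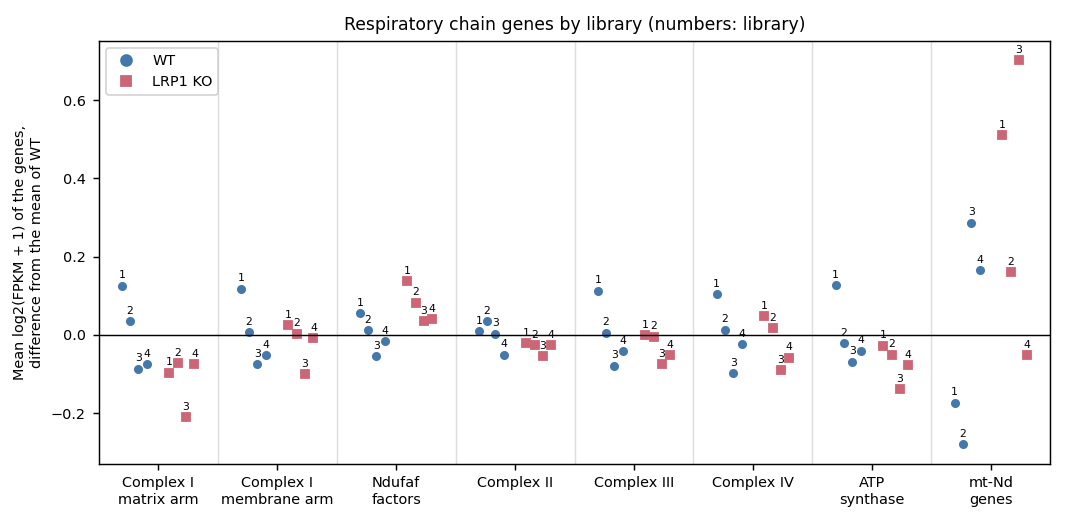
Mean log2(FPKM + 1) of each gene group in each WT (circles) and LRP1 KO (squares) library, as a difference from the mean of the 4 WT libraries, with libraries numbered. For the matrix arm LRP1 KO library 3 is lowest at -0.21 and WT library 1 highest at 0.13, and the mt-Nd genes spread from -0.28 to 0.70.

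Genes of the mitochondrial outer membrane, matrix and import machinery were listed for comparison. Of 12 tested, 11 had estimates above 0, with a median of 0.10, and 4 were called higher, where 6.27% of all tested genes were called higher: the channel Vdac2 rose from 306 to 385 FPKM (0.33, limma adjusted p = 0.0403), the import pores Tomm40 from 37.3 to 44.2 FPKM (0.24, limma adjusted p = 0.0377) and Timm23 from 71.6 to 84.6 FPKM (0.23, limma adjusted p = 0.0441), and the chaperone Hspd1 from 100.3 to 119.8 FPKM (0.25, limma adjusted p = 0.0330). The count stayed at 4 without LRP1 KO library 4, and was 0 when any other single library was left out and with either marker covariate. The difference between these genes and the Nduf genes was not tested.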

How the data were processed

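RNA sequencing was performed by the authors on 4 WT and 4 LRP1 KO libraries. The submitters' processing notes name TopHat2, Cufflinks and mm10, whereas the study's methods describe gene counts; no counts were used here. The deposited values are not whole and had nearly the same distribution in every library, so they were read as FPKM that the authors quantile normalized before deposit, an inferred unit. Such values hide depth, which is unknown, and any shift of all genes.

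Genes with at least 1 FPKM in at least 4 libraries were fitted on log2(FPKM + 1), a scale that understates changes of low genes, with group as the only term in limma 3.58.1 (R 4.3.3, trended variances). Benjamini-Hochberg adjustment covered all tested genes. The fit was tested on 5 simulated tables. It called 15.2% of genes given a log2 change of 0.25, 62.4% at 0.5 and 87.6% at 1, and 0.0661% of unchanged genes. Exact two-sided permutation tests used all 70 splits of 4 against 4. Alternatives were a pseudocount of 0.1, no filter, rescaled libraries, no variance trend, a replicate block, marker covariates and each library left out; leaving out WT library 1 with LRP1 KO library 4 was chosen after seeing the data.

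Named with values in every library were the core subunits, every Nduf gene called, and the 5 with the highest and the 5 with the lowest estimates. Genes of other lists were named where called; Ndufa4's values in every library, Cdh5, mt-Nd2 and the regulators were added after their values were seen. The members and lists were chosen with earlier results of these data known. All 43 genes matched GENCODE M21 (GRCm38). RefSeq promoters (GRCm38.p6) matched 38; Ndufa2, Ndufaf6, Ndufb9 and Ndufs1 are among those without an entry. A gene covered by the naming rule is not reported here and enters only the counts. Ndufb1, Ndufaf7, Dmac1, Coa1, Cox4i1 and Spi1 of the lists were not found by symbol.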

Additional observations from a re-analysis of the deposited data

Results flagged for a closer look

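In 7 of 88 groups of 4 libraries, 1 library lay further from the others than Dixon's 95% limit for the gap of a lone value, where chance gives about 1 in 20. WT library 1 was high for 3 genes: Ndufs4, an N module accessory subunit, at 36.2 FPKM against 29.2 to 29.8 in the other WT libraries, Ndufv2 at 79.0 against 67.3 to 68.7 FPKM, and the membrane arm subunit Ndufc2 at 81.2 against 68.9 to 70.4 FPKM. WT library 3 was low for Ndufb8, at 94.5 against 104 to 106 FPKM. LRP1 KO library 1 was high for Ndufa12, at 97.3 against 90.8 to 91.7 FPKM, and for Ndufb4, at 43.7 against 41.0 to 41.1 FPKM. LRP1 KO library 3 was low for Ndufb3, a distal membrane arm subunit, at 52.9 against 57.8 to 58.5 FPKM. None of these 7 genes was called between the groups.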

How the results depend on the processing

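The number of Nduf genes called, 1, stayed at 1 with a pseudocount of 0.1, with rescaled libraries and with the replicate block, but in the last 2 the gene called was Ndufb6 and not Ndufs6. It was 0 with no filter on low values, with no variance trend and with the macrophage or endothelial marker level as a covariate. Leaving out 1 library each gave 0 to 4, with 4 called without LRP1 KO library 4 (3 lower, among them Ndufs6 and Ndufs7, and Ndufb6 higher), and leaving out WT library 1 and LRP1 KO library 4 gave 3. Those 2 fits called 26.2% and 23.2% of all tested genes. The median log2 fold change of the family was below 0 in every alternative and ran from -0.08 to -0.02 when 1 library was left out. Over the 15 Nduf genes of the naming rule and 16 alternatives, 217 values kept their direction and side of the threshold, 8 passed it and 13 no longer did. Among these genes the direction turned only for Ndufs8, at 0.053 with the macrophage covariate, and Ndufaf2, at -0.036 with the endothelial covariate. The replicate block, added as an alternative, lowered the calls over all tested genes from 1547 to 1013. Deviations of same-numbered libraries from their group means correlated at 0.16, 0.14, 0.34 and -0.31 over all tested genes. Over the Nduf genes they correlated at 0.07, 0.02, 0.52 and 0.04. Differently numbered libraries reached 0.38 and 0.42, so these values cannot decide whether the numbers pair the samples. Without depth, counting error could not be computed.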
